A study of Homo sapiens with 8 samples.

Results

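Keratins are the intermediate filament proteins of epithelial cells, and 10 keratin genes were followed here: KRT8, KRT18, KRT19, KRT7 and KRT20 of simple epithelia, KRT15, KRT17 and KRT6A of basal and stratified epithelia, and KRT80 and KRT81, which belong to neither set. They were chosen by name, with earlier results of these data known, and found through their Entrez identifiers. They are 10 of the 54 type I and type II keratin genes listed and of 25702 genes in all. A keratin filament is built from pairs of 1 type I chain and 1 type II chain. KRT8 (type II) and KRT18 (type I) form the basic pair of simple epithelia, to which duct cells of the pancreas add KRT7 (type II) and KRT19 (type I). KRT15 and KRT17 (both type I) and KRT6A (type II) are known from stratified epithelia such as skin, where KRT15 marks basal cells and KRT17 and KRT6A are induced by stress, and KRT17, KRT6A and KRT81 are often used as markers of the basal-like or quasi-mesenchymal subtypes of pancreatic ductal adenocarcinoma (PDA).

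RNA-seq was performed on SUIT2, an established human cell line from a metastasis of PDA, in 8 libraries. The libraries carry the labels of a knockdown of EN1, a homeobox transcription factor: 4 are labelled as scramble shRNA controls (shScr), 2 as a first EN1 shRNA construct (shEN1 #1, titled shEn1_1) and 2 as a second (shEN1 #2, titled shEn1_2). All carry an shRNA delivered by a lentiviral vector with puromycin resistance, and the labels do not say whether replicates came from separate cultures, so that p-values measure only the spread between these libraries, which may be technical. The comparison of labels asks whether the keratins of these cells differ when EN1 is targeted.

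The libraries held between 33423590 and 37810604 counts. EN1 itself (Entrez 2019) was at 4.10, 4.50, 4.94 and 2.51 CPM (counts scaled to the size of the library, with TMM factors) in shScr replicates 1 to 4, at 5.77 and 5.41 in shEN1 #1 replicates 1 and 2, and at 1.35 and 6.70 in shEN1 #2 replicates 1 and 2. It was thus lower than in every shScr library in 1 of the 4 libraries labelled shEN1 and higher than in every shScr library in the other 3, against the direction of a knockdown, so the groups are named below only as the libraries were labelled. Over the genes tested, shScr replicate 4 and shEN1 #2 replicate 1 stood apart from the other 6 libraries on the first principal component (44.4% of the variance) and were each other's nearest library, and shScr replicate 3 and shEN1 #1 replicate 1 were nearest to each other as well. Keratin values are therefore given for each library, and those of shScr replicate 4 and shEN1 #2 replicate 1 are set beside the other 6. Of 8 epithelial markers, 8 had a mean of at least 1 CPM (summed CPM 716 to 1545 in shScr, 654 to 1528 in shEN1). So did 4 of 4 pancreatic duct markers (105 to 150 CPM and 109 to 151 CPM). Among other types, 0 of 6 acinar, 0 of 5 endocrine and 0 of 4 endothelial markers did. Vimentin (VIM), the filament of mesenchymal cells, was also present, at 575 to 2482 CPM, and is given by library below. Of 7 fibroblast markers COL1A1 reached a mean of 1.95 CPM while COL1A2, COL3A1, DCN and LUM were at 0 in all libraries (summed level 1.33 to 4.22 CPM in shScr and 1.17 to 2.75 CPM in shEN1), and of 4 immune markers CD68 reached 20.8 CPM while PTPRC, CD3E and LST1 were at 0 (8.38 to 28.1 CPM and 7.75 to 34.6 CPM).

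KRT8 and KRT18 were by far the most abundant keratins, and their levels varied less over the 8 libraries than those of the other keratins tested. KRT8 was at 7801, 7951, 6279 and 6486 CPM in the shScr libraries, at 6094 and 7244 CPM in the shEN1 #1 libraries and at 6367 and 9573 CPM in the shEN1 #2 libraries. KRT18 was at 5180, 4716, 3586 and 4254 CPM in shScr, at 3628 and 4767 CPM in shEN1 #1 and at 4219 and 5628 CPM in shEN1 #2. For both genes shEN1 #2 replicate 2 was highest, and the arms overlapped. The highest library exceeded the lowest 1.57-fold for both, and the spread of their log2 CPM over the 8 libraries lay at the 40.3 and 42.0 percentile of all 14333 genes tested. Over the 6 libraries without shScr replicate 4 and shEN1 #2 replicate 1, the spread lay at the 55.0 and 61.2 percentile. In bulk samples such as these, fewer cells with a transcript and less of it per cell cannot be told apart.

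The ductal keratins KRT19 and KRT7 varied most among the followed keratins with enough counts for a test. KRT19 was at 1091, 1457, 1037 and 400 CPM in shScr, at 831 and 1040 CPM in shEN1 #1 and at 321 and 1648 CPM in shEN1 #2. KRT7 was at 1057, 847, 533 and 198 CPM in shScr, at 568 and 1080 CPM in shEN1 #1 and at 192 and 916 CPM in shEN1 #2. Both genes were lowest in the same libraries, shEN1 #2 replicate 1 and shScr replicate 4, which carry opposite labels. The next lowest library was 2.08 times the higher of these 2 for KRT19 and 2.69 times for KRT7. Over all 8 libraries the highest was 5.14 times the lowest for KRT19 and 5.63 times for KRT7, and within the shScr label alone it was already 3.64 and 5.33 times. The spread ranked at the 92.0 percentile of all genes tested for KRT19 and at the 95.1 percentile for KRT7. Over the other 6 libraries the ranges narrowed to 1.98-fold and 2.02-fold, at the 74.2 and 80.8 percentile.

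**Figure D1:**
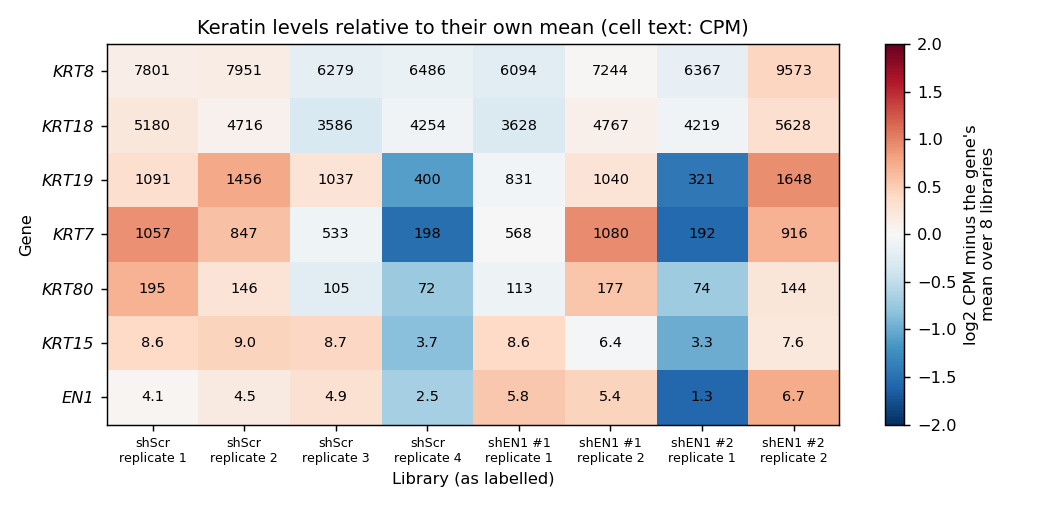
Level of the 6 keratins tested and of EN1 in each library, coloured by log2 CPM minus the gene's mean over 8 libraries, with the CPM written in each cell. KRT19, KRT7, KRT80, KRT15 and EN1 are lowest in shScr replicate 4 and shEN1 #2 replicate 1, and KRT8 and KRT18 are not.

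KRT20, a type I keratin of the gastrointestinal lining, had 2 counts in all, both in shEN1 #1 replicate 2. A count of 0 allows up to 3 counts, which is between 0.0762 and 0.0922 CPM in these libraries. KRT20 was thus not detectable in 7 of the 8 libraries at this depth.

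KRT80, a type II keratin reported in many epithelia at sites of cell contact, was at 195, 146, 105 and 72.2 CPM in shScr, at 113 and 177 CPM in shEN1 #1 and at 73.6 and 144 CPM in shEN1 #2. It too was lowest in shScr replicate 4 and shEN1 #2 replicate 1, with a 2.71-fold range over 8 libraries and a 1.86-fold range over the other 6. The spread of KRT80 ranked at the 80.6 percentile over 8 libraries and at the 73.1 percentile over the other 6. KRT81, a hair keratin, had 3 counts in shScr replicate 3, 2 in shEN1 #1 replicate 1 and 2 in shEN1 #2 replicate 2, and none in the other 5 libraries.

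Of the basal keratins followed, only KRT15 was measurable, at a low level. KRT15 was at 8.62, 8.95, 8.69 and 3.66 CPM in shScr, at 8.63 and 6.38 CPM in shEN1 #1 and at 3.28 and 7.56 CPM in shEN1 #2. Again shScr replicate 4 and shEN1 #2 replicate 1 were lowest, and the other 6 libraries lay between 6.38 and 8.95 CPM, a 1.40-fold range. The spread of KRT15 ranked at the 82.9 percentile over 8 libraries and at the 38.6 percentile over the other 6. KRT17 had 2 counts, both in shEN1 #2 replicate 2, and KRT6A had none in any library, which over the 8 libraries together allows up to 0.0106 CPM.

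**Figure D2:**
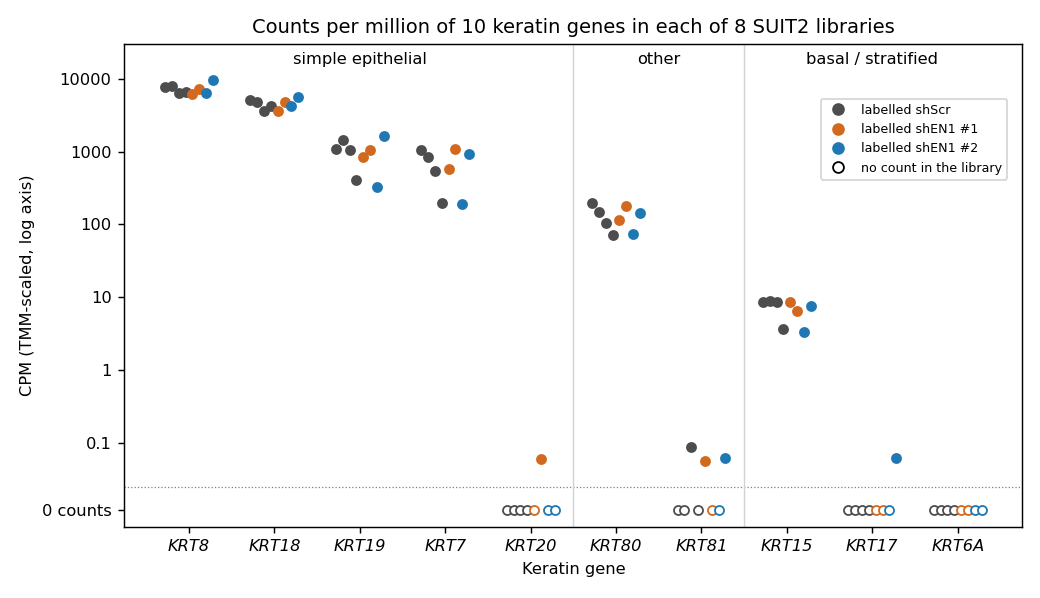
CPM of the 10 keratin genes (log axis, with libraries without a count drawn open below the dotted line) in each of the 8 libraries, 1 point a library, coloured by label. KRT8 and KRT18 lie between 3586 and 9573 CPM, KRT15 lies below 9 CPM, and KRT20, KRT81, KRT17 and KRT6A have at most 3 counts in a library.

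Some keratins have close copies, which bears on how reads could be counted. In the human genome (GRCh37), KRT6A lies at chr12:52880960-52887041 on the minus strand, beside KRT6B and KRT6C, and of the 50-base windows in its exons 39.4% had an exact copy elsewhere in the genome. KRT6A, KRT6B and KRT6C were all at 0 counts in all 8 libraries, so no read was assigned to any copy. KRT17 (chr17:39775694-39781094, minus strand) has the relatives KRT16 and KRT14. The coding stretches of 80 bases in which these 3 genes are most alike without being equal are given 5′ to 3′ on the coding strand. Capitals mark the positions where the genes differ, and within the stretch only these tell the genes apart. Bases outside it, in the read or its mate, can also do so. Over the whole coding exon of 221 bases, KRT16 equals KRT17 at 201 and KRT14 at 200. The stretches are at chr17:39777003-39777082 (KRT17), chr17:39766675-39766754 (KRT16) and chr17:39739579-39739658 (KRT14), all on the minus strand.
KRT17: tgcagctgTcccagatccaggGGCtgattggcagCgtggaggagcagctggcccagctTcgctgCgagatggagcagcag
KRT16: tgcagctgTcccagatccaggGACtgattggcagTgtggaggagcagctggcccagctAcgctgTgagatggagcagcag
KRT14: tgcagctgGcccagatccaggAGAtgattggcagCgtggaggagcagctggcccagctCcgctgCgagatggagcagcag

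These 3 differ at 7 of 80 positions, and 18.2% of the windows of KRT17 had a copy elsewhere. KRT16 had between 0 and 10 counts in a library and KRT14 had 6 counts, all in shEN1 #1 replicate 2, so that together with the 2 counts of KRT17 the group stayed at the floor or close to it. KRT81 (42.7% of windows) has near-identical coding exons in KRT86, which had 16 counts in shEN1 #1 replicate 2 and at most 2 in any other library. KRT8 (chr12:53290971-53343738, minus strand) and KRT18 (chr12:53342655-53346690, plus strand) had 41.1% and 35.0% of their windows elsewhere in the genome, and their annotated spans overlap. Whether their exons overlap was not examined. The methods give neither a strand setting for the counting nor the treatment of reads that map to several places. A share of the reads of both could therefore have been lost or split, which was not tested. KRT7, KRT19, KRT80, KRT15 and KRT20 had fewer than 1% of windows elsewhere.

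**Figure D3:**
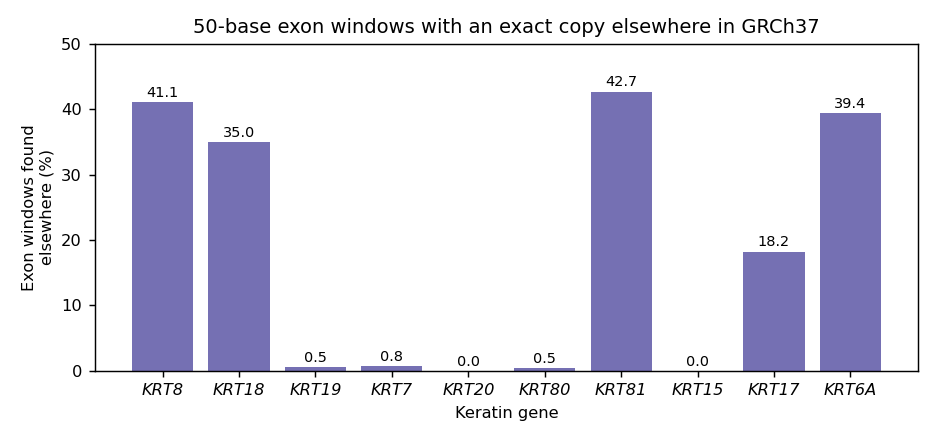
Share of the 50-base exon windows (canonical transcript) of each of the 10 keratin genes that occur elsewhere in GRCh37 without a mismatch, in percent. KRT8, KRT18, KRT81, KRT6A and KRT17 reach between 18.2% and 42.7%, and the other 5 stay under 1%.

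Per kilobase of transcript, the mean level over the 8 libraries was 4049 CPM for KRT8, 3183 for KRT18, 704 for KRT19, 415 for KRT7, 33.1 for KRT80 and 4.07 for KRT15. This order per kilobase held in 8 of 8 libraries, with KRT8 above KRT18 by 1.19 to 1.39 times. The ranges over the 8 libraries overlapped for KRT8 and KRT18 and for KRT19 and KRT7, although the order held within each library, and they did not overlap for the other neighbouring pairs.

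The sums of both filament types kept a narrow ratio although their parts did not. Per kilobase, all type II keratins listed, mainly KRT8 and KRT7, summed to between 3706 and 5967 CPM. All type I keratins listed, mainly KRT18 and KRT19, summed to between 3182 and 5194 CPM. The ratio of type II to type I was 1.15 ± 0.0165 (SD, n = 4) in shScr and 1.16 ± 0.0213 (SD, n = 4) in shEN1, and over the 8 libraries its highest value was 1.05 times its lowest. The sums rest mostly on KRT8 and KRT18, whose reads may be split as described. Within the sums, KRT7 made up 3.23% of type II in shScr replicate 4 and 3.18% in shEN1 #2 replicate 1, and 8.47% to 13.9% in the other 6 libraries. KRT19 made up 8.69% and 7.15% of type I in these libraries, and 17.6% to 23.8% in the others.

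**Figure D4:**
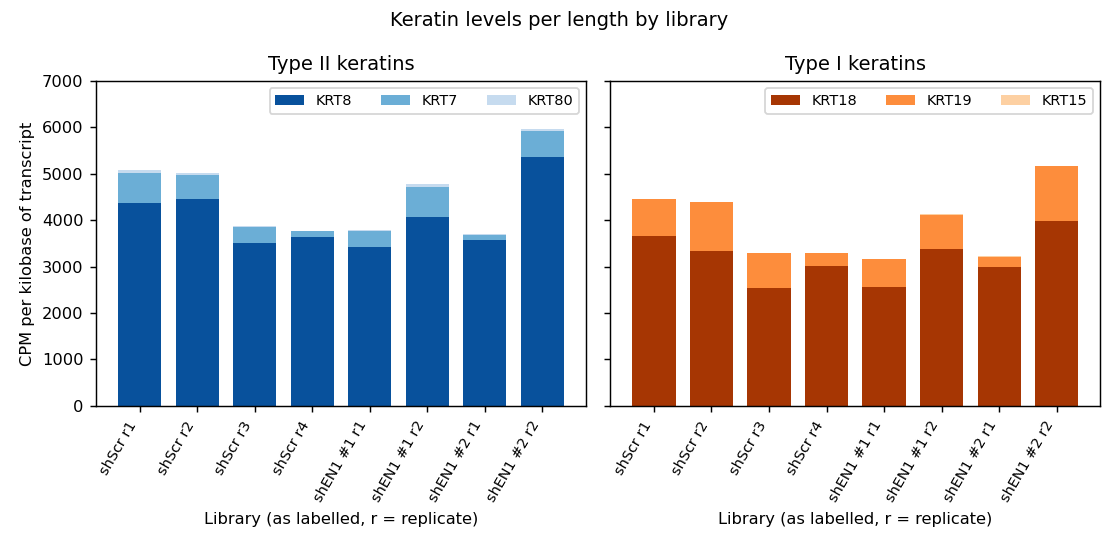
CPM per kilobase of transcript of the type II keratins KRT8, KRT7 and KRT80 (left) and the type I keratins KRT18, KRT19 and KRT15 (right) in each library, stacked by gene. KRT8 and KRT18 make up most of each bar, and the KRT7 and KRT19 segments are thin in shScr replicate 4 and shEN1 #2 replicate 1. The bars are highest in shEN1 #2 replicate 2. The sums over all keratins of each type, which include genes not drawn, were 5967 and 5194 CPM per kilobase there.

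Among the keratins followed, the simple set exceeded the basal set by 3 orders of magnitude in every library. The simple keratins summed to between 11098 and 17765 CPM and the basal keratins, in effect KRT15, to between 3.28 and 8.95 CPM, a share of 0.0295% to 0.0775%. KRT10 of differentiating epidermis (18.3 to 42.5 CPM) and KRT5 of basal cells (0.152 to 1.26 CPM) were not in the basal set. The log2 ratio of basal to simple CPM was -10.86 ± 0.524 (SD, n = 4) in shScr and -11.09 ± 0.574 (SD, n = 4) in shEN1. The difference of -0.23 was smaller than the SD within either label. Together the 10 keratins took between 1.09% and 1.74% of a library's counts.

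Between labels, no keratin passed the test. The 6 keratins with enough counts for a test (KRT8, KRT18, KRT19, KRT7, KRT80 and KRT15) were compared by edgeR's quasi-likelihood test across all genes, and 0 of 6 passed a Benjamini-Hochberg adjusted p of 0.05, against a background of 0% of the 14333 genes tested. Without adjustment 0 of 6 had a p below 0.05, beside a background of 0.307%, and DESeq2 called 0 of 6 with a background of 0.014% (2 genes). For 0 of 6 did the CPM of the arms not overlap, beside 0.419% of all genes. KRT8 was at 7129 ± 868 CPM in shScr and 7319 ± 1580 CPM in shEN1 (SD, n = 4 each), a log2 fold change of 0.04 ± 0.17 (SE), and KRT18 differed by 0.04 ± 0.17. KRT7 was at 659 ± 375 CPM against 689 ± 394 CPM, a log2 fold change of 0.06 ± 0.58, and KRT19 at 996 ± 439 CPM against 960 ± 549 CPM, a log2 fold change of -0.05 ± 0.49. KRT80 differed by -0.03 ± 0.33 and KRT15 by -0.21 ± 0.35. For each of the 6, the adjusted p was 1.00 (edgeR), 2 of the 4 shEN1 libraries were above the shScr mean, and a two-sided exact permutation test on CPM gave p between 0.486 and 0.943, where the smallest value that 70 assignments of 4 of 8 libraries allow is 0.0286. The fold changes were above 0 for 3 and below 0 for 3, with a median of 0.0041, beside a median of -0.0028 over all genes tested. The standard errors of KRT7 and KRT19 leave room for differences larger than the SE itself, so the test does not show that the labels are alike for these genes.

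**Figure D5:**
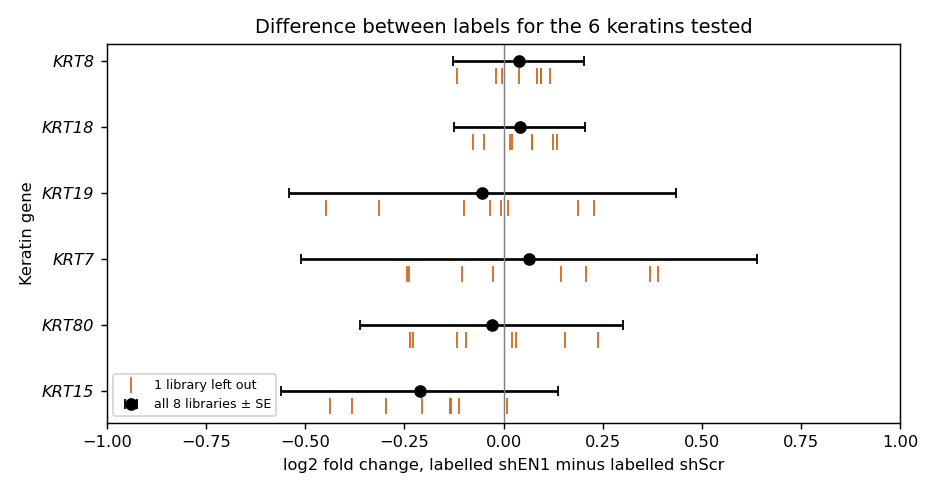
Log2 fold change (labelled shEN1 minus labelled shScr) of the 6 keratins tested, with the standard error over all 8 libraries (black) and the values with 1 library left out (orange ticks). All intervals of 1 SE include 0, and leaving out 1 library moves KRT7 between -0.24 and 0.39 and KRT19 between -0.45 and 0.23.

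With shScr replicate 4 and shEN1 #2 replicate 1 both left out, the log2 fold changes were 0.07 for KRT7, -0.03 for KRT19, -0.04 for KRT80 and -0.22 for KRT15, and 0 of 6 passed (edgeR, background 0.00701%, 1 gene of 14263). Taken by construct, 0 of 6 keratins passed for shEN1 #1 (background 0%, and 0 of 6 beside 0.656% at an unadjusted p below 0.05), with log2 fold changes from -0.10 for KRT8 to 0.32 for KRT7. For shEN1 #2 the count was 0 of 6 too (background 0%, and 0 of 6 beside 0.3% unadjusted), from -0.47 for KRT15 to 0.16 for KRT8. The constructs were compared with each other directly, and 0 of 6 keratins differed (background 0%, and 0 of 6 beside 1.07% unadjusted).

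Of the other keratin genes, KRT10 and KRT23 had a mean of at least 1 CPM. KRT10, a type I keratin of differentiating epidermis, was at 20.7, 20.2, 38.7 and 23.8 CPM in shScr, at 22.8 and 25.9 CPM in shEN1 #1 and at 18.3 and 42.5 CPM in shEN1 #2. It was highest in shScr replicate 3 and shEN1 #2 replicate 2, which carry opposite labels, and its log2 fold change was 0.08 ± 0.29 (SE). KRT23, a type I keratin, ranged from 0.412 to 3.33 CPM (-0.28 ± 0.66), and KRT5, the type II keratin of basal cells, from 0.152 to 1.26 CPM (-0.43 ± 0.75). Neither passed (adjusted p = 1.00, edgeR). In all, 9 of the 54 keratins listed were tested, 12 had counts but too few, and 33 had none in any library.

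The genes whose log2 CPM followed each keratin most closely over the 8 libraries were read as the smallest root mean square (RMS) difference after each gene's mean was taken off. For KRT18 they were C1QBP (0.0430) and CKMT2-AS1 (0.0827), and for KRT8 RMP24 (0.0788) and GNB1L (0.0867), with KRT18 itself as the nearest keratin at 0.0868. KRT7 was followed by ACOT11 (0.122) and TNFRSF1B (0.192), and KRT19 by SLC6A20 (0.124) and TMEM30B (0.124). KRT7 and KRT19 were each other's nearest keratin, at 0.379. The RMS of a gene's own deviations from its mean was 0.210 for KRT8 and 0.216 for KRT18. For KRT7 it was 0.951 and for KRT19 0.788. Distances can be larger for genes that vary more, so they are not compared between the pairs. KRT80 was followed by ICAM2 (0.0828) and UPK1B (0.100), and KRT15 by MPZL2 (0.105) and PRSS3 (0.118). These are the closest genes with a symbol among the 14333 genes tested, over libraries that fall into clusters. A small distance is thus a description of these 8 libraries only.

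Proteins that bind keratin filaments, other intermediate filaments and transcription factors known for keratin genes were examined as lists. Of 21 genes for partners (desmosome and hemidesmosome proteins, cytolinkers, 14-3-3 proteins, chaperones and other filament-associated proteins), 20 were tested. Among these, 15 were above 0 and 5 below, with a median log2 fold change of 0.06, and 0 passed (edgeR, background 0%). Over all 14333 genes tested, 7006 were above 0 and 7327 below, with a median of -0.0028. Plectin (PLEC), which links keratins to hemidesmosomes, was at 1343 ± 254 CPM in shScr and 1556 ± 429 CPM in shEN1 (SD, n = 4 each), the integrin ITGB4 at 1186 ± 257 and 1230 ± 425 CPM, desmoplakin (DSP) at 102 ± 12.4 and 108 ± 25.2 CPM, and plakoglobin (JUP) at 133 ± 32.6 and 130 ± 47.6 CPM. JUP was at 85.6 CPM in shScr replicate 4 and 76.8 CPM in shEN1 #2 replicate 1, below the 104 to 177 CPM of the other libraries, and dystonin (DST), a cytolinker, was highest in the same libraries, at 128 and 144 CPM against 85.2 to 104 CPM. Both libraries were below all others for 11 of the 20 partners tested and above all others for 1, beside 19.2% and 18.9% of all genes tested, and below all others for 4 of the 6 keratins tested.

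Of 15 other intermediate filament genes, 7 were tested and 0 passed (median 0.01, edgeR, background 0%). Vimentin (VIM), the filament of mesenchymal cells, was at 1759, 1123, 575 and 2241 CPM in shScr, at 809 and 1917 CPM in shEN1 #1 and at 2482 and 1217 CPM in shEN1 #2. It was highest in shEN1 #2 replicate 1 and shScr replicate 4, the libraries lowest in KRT7 and KRT19, and lowest in shScr replicate 3 and shEN1 #1 replicate 1. Its part in the keratin values was not tested. Lamin A (LMNA) of the nuclear envelope was at 1073 ± 126 and 1106 ± 240 CPM.

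Of 26 regulators, 23 were tested, 9 were above 0 and 14 below (median -0.02), and 0 passed (edgeR, background 0%). Of all 14333 genes tested, 7006 were above 0 and 7327 below. ELF3, an epithelial transcription factor, was at 99.0, 160, 147 and 65.8 CPM in shScr, at 95.0 and 87.2 CPM in shEN1 #1 and at 48.6 and 157 CPM in shEN1 #2. Its lowest libraries were again shEN1 #2 replicate 1 and shScr replicate 4. The same held for 10 of the 23 regulators tested (43.5%, beside 19.2% of all genes tested). Both libraries were highest for 4 regulators (GRHL1, SOX2, TFAP2A and TFAP2C). That is 17.4%, near the 18.9% of all genes tested. TFAP2A was at 48.2 CPM in shScr replicate 4 and 44.9 CPM in shEN1 #2 replicate 1, against 20.3 to 29.5 CPM in the other libraries. KLF5 (263 ± 27.7 and 256 ± 46.7 CPM), GRHL2 (85.7 ± 9.55 and 82.6 ± 10.8 CPM) and GATA6 (20.4 ± 5.64 and 21.2 ± 4.82 CPM), which act in epithelial and endodermal gene expression, differed by less than their SD. TP63, the factor of basal cells that drives KRT5 and KRT14, was at 0 in 7 libraries and at 0.23 CPM in shScr replicate 3, and of the other squamous markers only S100A2 had a mean of at least 1 CPM.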

How the data were processed

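The authors aligned paired-end reads of poly(A)-selected RNA to the human genome (hg19, per the methods, while the submitters' processing notes name a mouse build) with HISAT2 and counted them per Entrez gene with featureCounts. Their whole-number counts were deposited without normalization. The annotation, strand setting and treatment of reads that map to several places are not given in the sources used here. Identifiers were matched to symbols through RefSeq (23696 of 25702), and positions, lengths and sequences were taken from GENCODE on GRCh37. Genes were filtered by arm (filterByExpr, minimum count 10, 14333 kept), scaled by TMM and tested with edgeR 4.0.16 (glmQLFit, robust) in R 4.3.3, without a block. The pooled comparison set 4 libraries labelled shEN1 against 4 labelled shScr, and a fit with 3 groups compared the constructs. Log2 CPM for distances came from edgeR with a prior count of 2. Alternatives were DESeq2 1.42.0, other scalings and filters, a replicate block and left-out libraries. The scripts were tested on simulated data. Library totals were 33423590 to 37810604, and floors (3 counts) cover counting error only. Members, lists and the rule for named genes (EN1, the 10 keratins, other keratins of at least 1 CPM, fixed partner and regulator genes, and the 2 closest genes of each keratin) were chosen with earlier results of these data known. KRT5, named beside its regulator, DST, TFAP2A and the genes beside them, the markers of other cell types and the low-count copies were added after their values were seen.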

Additional observations from a re-analysis of the deposited data

Results flagged for a closer look

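Within groups of 4 libraries, 4 of 40 sets of keratin values had a library far from the others by Dixon's criterion at the 95% level, where chance gives about 2. KRT15 in shScr replicate 4 was at 3.66 CPM, while the other 3 shScr libraries were at 8.62 to 8.95 CPM, and the basal sum of that library was also 3.66 CPM because KRT15 made it up. The ratio of type II to type I keratins per kilobase was 1.17 in shScr replicate 3, against 1.14 in the other shScr libraries, and 1.19 in shEN1 #1 replicate 1, against 1.15 in the other shEN1 libraries.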

How the results depend on the processing

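No keratin was called in any of 62 alternative fits over the 4 comparisons, of which 9 called between 1 and 3 genes in all. For the pooled comparison of labels, the smallest adjusted p of the 6 keratins tested was 0.9997 (edgeR, or DESeq2 for its own alternative). The signs of the small fold changes were not stable: 21 of 102 values changed sign. Leaving out 1 library at a time gave log2 fold changes of -0.24 to 0.39 for KRT7, -0.12 to 0.12 for KRT8, -0.077 to 0.14 for KRT18, -0.45 to 0.23 for KRT19, -0.24 to 0.24 for KRT80 and -0.44 to 0.0076 for KRT15. With the replicate block, which drops shScr replicates 3 and 4, all 6 values lay below 0, at -0.71 for KRT7, -0.13 for KRT8, -0.14 for KRT18, -0.54 for KRT19, -0.51 for KRT80 and -0.45 for KRT15 (1 gene called of 14747), and without shScr replicate 3 and shEN1 #1 replicate 1 the value was 0.029 for KRT19; the cause was not tested. Same-numbered libraries deviated together in no consistent way (correlations -0.33 to 0.44), so the numbers were not taken as pairs. The difference in the log2 ratio of basal to simple keratins was -0.23 and stayed below 0 in the alternatives run, from -0.48 without shEN1 #1 replicate 1 to -0.016 without shEN1 #2 replicate 1, and was -0.027 over all simple and stratified keratins, all within the pooled SD of 0.55 of the main value. Depth limits KRT6A, KRT17, KRT20 and KRT81, whose values lie at or near the floor of 3 counts.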

Other observations

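Among keratins with too few counts for a test, KRT13 had 12 counts in shScr replicate 3 and 12 in shEN1 #2 replicate 2, and at most 3 in any other library. KRT34 had 10 of its counts in shScr replicate 2, and KRT32 had between 0 and 10 counts in a library. The 6 keratin pseudogenes listed had 15 counts in all, of which 11 belonged to KRT17P5.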
